A study of Mus musculus with 6 samples.

Results

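The 43 genes described here encode the machinery that copies DNA and the enzymes that supply its building blocks. They were listed by name for their roles in DNA replication and nucleotide supply, by a rule that uses no measured value, although the list was drawn up with earlier results of these data known. They are 43 of the 53458 genes to which the deposited transcripts could be assigned. All 43 had enough reads to be tested, among 20654 tested genes. Expression was measured by RNA sequencing in leukemic blasts of mice with acute myeloid leukemia. All 6 libraries carried the genotype Cebpa-/p30, in which 1 allele of Cebpa, the gene of the myeloid transcription factor C/EBP alpha, is absent and the other makes only the short p30 form. In 3 libraries Asxl1, a gene of a chromatin regulator, was wild type (WT 1 to 3), and in 3 both Asxl1 alleles carried the G643W change (G643W 1 to 3), on the strain named C57/BL6 in the labels. The cells came from bone marrow of transplanted mice and were sorted as CD45.2-positive, Mac1-low and Gr1-low cells without Ter119, B220 or CD3. No animal ages are given, and the labels do not say which libraries trace to separate primary leukemias, so p-values here reflect only how these libraries vary, which may be technical.

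Replication starts from origins at which the origin recognition complex, Cdc6 and Cdt1 load the ring-shaped MCM helicase in G1, while geminin, the product of Gmnn, blocks Cdt1 once S phase has begun. Cdc45 and the GINS complex then turn the loaded ring into a working helicase, polymerase alpha with primase makes the primers, and polymerases delta and epsilon copy the strands on the sliding clamp Pcna. Many of these genes are transcribed around the start of S phase under E2F factors, which the RB family of proteins restrains. In marrow, high levels of such transcripts are known from cycling progenitors, and neutrophils that have left the cycle have little of them.

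Library totals ranged from 61167075 to 101189225 estimated reads, of which the 43 genes took 0.281 to 0.574%. As checks of the sort, Ptprc (CD45) had 49.3 to 160 TPM (a transcript level scaled to length and depth), while Cd3e of T cells reached at most 0.219 TPM. Other lymphoid markers were higher: summed, the 8 T and NK cell markers had 2.397 to 12.95 TPM and the 6 B cell markers 8.975 to 16.58 TPM. Kit, a progenitor receptor, lay between 2.12 and 35.9 TPM. Ly6g, which carries the Gr1 epitope, lay between 6.14 TPM in WT 1 and 697 TPM in G643W 2, so maturing neutrophil transcripts differed widely between libraries within both genotypes.

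The E2F letters were common near the starts of these genes. RefSeq promoter windows (GRCm38.p6, from 250 bases before to 50 bases after a start) were at hand for 35 of the 43 genes, in 40 windows. The searched letters were TTTCCCGC, TTTCGCGC, TTTGCCGC and TTTGGCGC on either strand, with overlapping matches counted separately. They were present in 14 of the 40 windows (35%), against 744 of all 32851 windows (2.26%) and 607 of 21263 windows of protein-coding genes (2.85%). The letters CCAAT on either strand were in 23 of the 40 (57.5%) and in 37.4% of all windows. The CHR letters of mitosis genes, TTTGAA or TTCGAA on either strand, were in 7 of the 40 (17.5%) and in 19.2% of all windows. A match is a description of letters and not a measured binding site. The 180 bases before the start are shown for 6 helicase loading and helicase genes that have a match there (Mcm7 at 1 of its 2 annotated starts), 5′ to 3′ on the gene's strand, with the E2F letters in capitals.
Orc1 (chr4:108579274-108579453, plus strand): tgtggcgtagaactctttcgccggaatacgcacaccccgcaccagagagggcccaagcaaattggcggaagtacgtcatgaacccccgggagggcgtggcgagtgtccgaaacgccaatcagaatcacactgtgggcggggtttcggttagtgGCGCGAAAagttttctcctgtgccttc
Cdc6 (chr11:98907971-98908150, plus strand): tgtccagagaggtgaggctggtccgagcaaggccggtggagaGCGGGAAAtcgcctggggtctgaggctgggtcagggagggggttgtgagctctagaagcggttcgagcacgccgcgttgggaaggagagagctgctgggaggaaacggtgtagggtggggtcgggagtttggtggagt
Mcm5 (chr8:75109329-75109508, plus strand): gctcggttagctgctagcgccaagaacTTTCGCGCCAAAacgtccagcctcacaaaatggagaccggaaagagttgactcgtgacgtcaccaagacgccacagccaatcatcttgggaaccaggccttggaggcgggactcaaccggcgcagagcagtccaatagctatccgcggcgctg
Mcm6 (chr1:128359706-128359885, minus strand): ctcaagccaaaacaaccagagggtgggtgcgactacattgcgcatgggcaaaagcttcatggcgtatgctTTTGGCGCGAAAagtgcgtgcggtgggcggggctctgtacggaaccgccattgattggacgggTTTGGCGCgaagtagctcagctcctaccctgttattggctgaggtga
Mcm7 (chr5:138171884-138172063, minus strand): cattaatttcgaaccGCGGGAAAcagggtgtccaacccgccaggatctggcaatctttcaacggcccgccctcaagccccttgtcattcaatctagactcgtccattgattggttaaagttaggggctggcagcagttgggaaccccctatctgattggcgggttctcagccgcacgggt
Gins3 (chr8:95633379-95633558, plus strand): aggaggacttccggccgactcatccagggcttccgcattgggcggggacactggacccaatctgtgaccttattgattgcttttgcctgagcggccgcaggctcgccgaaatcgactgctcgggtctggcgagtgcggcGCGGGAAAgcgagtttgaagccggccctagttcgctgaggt
In Mcm6, 3 matches lay within the stretch, 2 of them overlapping at 110 and 106 bases before the start and the third at 47 bases. In Mcm5, 2 matches overlapped at 153 and 149 bases before the start. Orc1, Cdc6, Mcm7 and Gins3 had 1 match each in the stretch, at 27, 138, 165 and 41 bases before the start. These starts are those of RefSeq. The stretches of Cdc6 and Mcm7 lie wholly, and those of Orc1 and Gins3 partly, within the GENCODE M21 genes used for the counts. The 14 genes with a match anywhere in a window had a median log2 difference between genotypes of 0.03, and the 21 with a window and no match had 0.06.

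On read counts, none of the replication genes passed the test between the genotypes, and their median difference was near 0. A log2 difference is G643W minus WT from edgeR's quasi-likelihood fit on read counts, and adjusted p-values carry the Benjamini-Hochberg correction across the 20654 genes tested (threshold 0.05). Of the 43 genes, 0 rose and 0 fell, where 0.121% of all tested genes were called, and none had an unadjusted p under 0.05, where 3.89% of all genes did with higher and 5.78% with lower values in G643W. DESeq2 also called 0 of the 43, against 2.21% of the genes for which it gave an adjusted p. The log2 difference was positive in 26 and negative in 17, with a median of 0.03 and a range from -0.54 for Orc1 to 0.63 for Rrm2, and the median of all genes tested was -0.01. In Prim2 alone did every G643W library exceed every WT library in CPM (a share of reads scaled by TMM factors for depth and not for length), and in none did every G643W library lie below. Among all genes tested 7.05% lay wholly higher and 8.89% wholly lower. These counts do not show that the genotypes were alike. In simulated counts the edgeR test called 1 of 50 genes changed 2-fold and 4 of 50 changed 4-fold. The 95% intervals of all 43 log2 differences included 0, and 24 of the 43 lay wholly within a 2-fold change in either direction. The other 19 reached past 2-fold on at least 1 side, and standard errors ranged from 0.19 to 0.53.

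**Figure D1:**
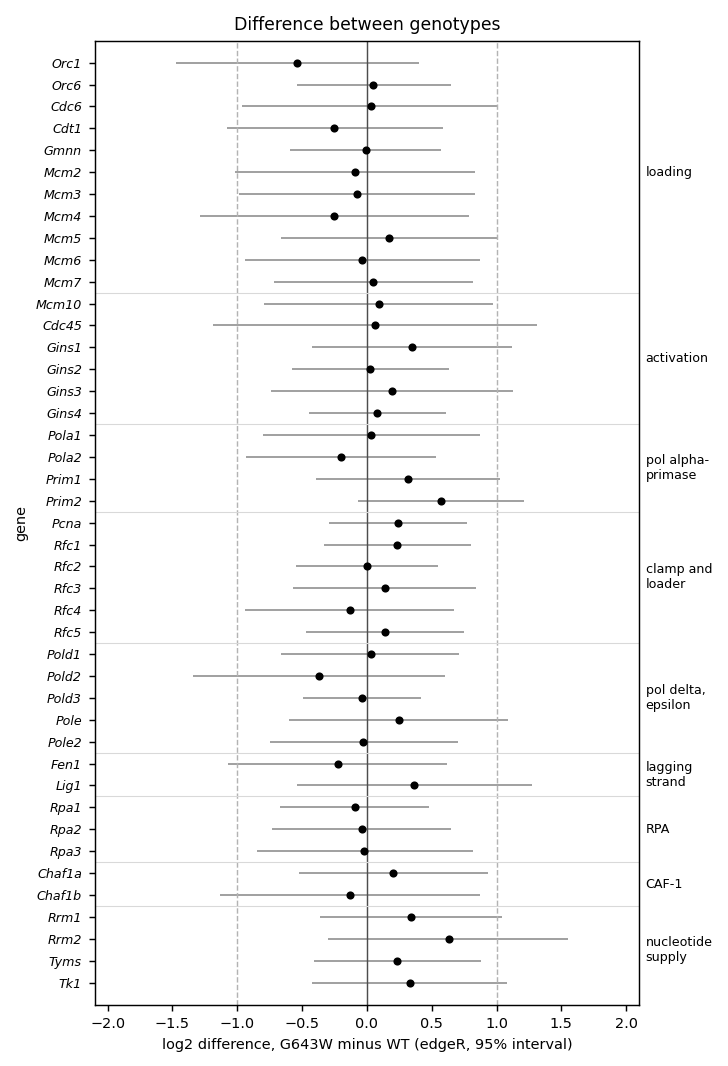
Log2 difference between genotypes (G643W minus WT, x axis) of each of the 43 genes (y axis, grouped by role), as points with 95% intervals from the edgeR fit of 3 against 3 libraries; dashed lines mark a 2-fold change. Every interval crosses 0, and the points run from -0.54 for Orc1 to 0.63 for Rrm2.

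Libraries of the same genotype differed in these genes, the WT libraries most, and the genes shared much of the pattern. In 37 of the 43 genes WT 1 was the lowest and WT 3 the highest WT library by CPM, an order that 19.3% of the 19827 genes with reads in every library showed. WT 1 was the lowest of all 6 libraries in 36 genes, and WT 3 or G643W 1 the highest in 24 and 15. G643W 1 exceeded G643W 2 in 38 of the 43, against 55.5% of all genes. The highest WT library had a median of 2.01 times the lowest, from 1.33 to 4.83 times, and in G643W the median was 1.40 times. The fold between the genotypes had a median of 1.10, regardless of direction, and was below the range over WT libraries in all 43 genes. The same held for 78.9% of all genes, whose median ranges were 1.83 times in WT and 1.79 times in G643W. A range over single libraries and a fold between groups are unlike measures, so their sizes are not directly comparable. Summed over the 43 genes, the level was 2681, 4044 and 5474 CPM in WT 1 to 3 and 5132, 3785 and 4054 CPM in G643W 1 to 3. The G643W sums thus lay inside the WT range. In bulk samples, fewer cells in S phase and less RNA of these genes per cell cannot be told apart.

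**Figure D2:**
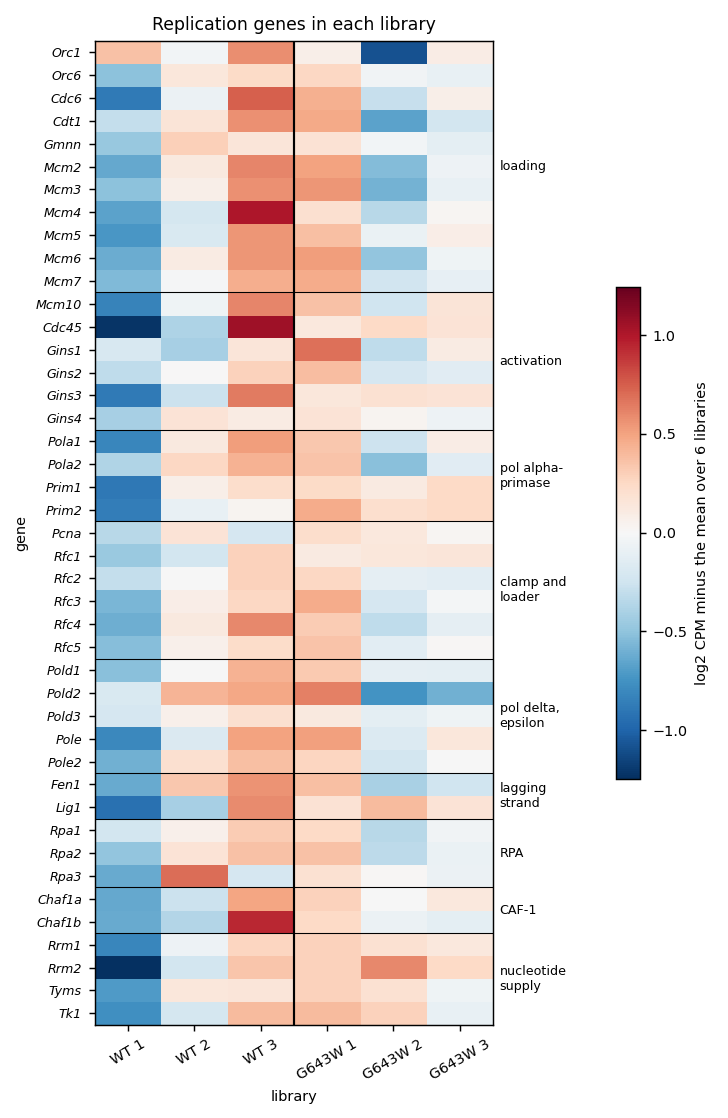
Level of each of the 43 genes (rows, grouped by role) in each of the 6 libraries (columns), as log2 CPM minus the gene's mean over the libraries; red is higher and blue lower. WT 1 is the lowest of the 6 libraries in 36 rows, and WT 3 is the highest in 24.

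Of the myeloid marker lists, promyelocyte markers followed the replication genes, and neutrophil and monocyte markers did so in part or not at all. The mean log2 CPM of the 43 genes relative to all libraries was -0.58, 0.01 and 0.41 in WT 1 to 3 and 0.33, -0.15 and -0.01 in G643W 1 to 3. All 5 promyelocyte markers were measured (Mpo, Elane, Prtn3, Ctsg and Ms4a3, made by dividing granulocyte precursors), and their mean was -1.97, 0.25 and 1.06 in WT and 1.51, -1.17 and 0.32 in G643W. Both lists were thus lowest in WT 1 and next lowest in G643W 2, and highest in WT 3 and G643W 1. Summed, the promyelocyte markers ranged from 1579 to 9562 CPM in WT and from 1519 to 12362 CPM in G643W libraries. All 14 neutrophil markers were measured, at a mean of -2.70, -1.22 and 1.28 in WT and -1.98, 2.68 and 1.95 in G643W libraries, with sums of 2502 to 56490 CPM and 10576 to 141437 CPM. The neutrophil and replication genes had the same order in WT libraries, and in G643W libraries G643W 1 was lowest for the first and highest for the second. The 8 monocyte markers had means of 0.65, 0.58 and 0.06 in WT and -0.44, -1.12 and 0.25 in G643W libraries, highest in WT 1, where the replication genes were lowest. The part of these markers in the level of the replication genes was not tested beyond a fit with the neutrophil mean as a covariate, in which the median log2 difference of the 43 genes was 0.02.

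**Figure D3:**
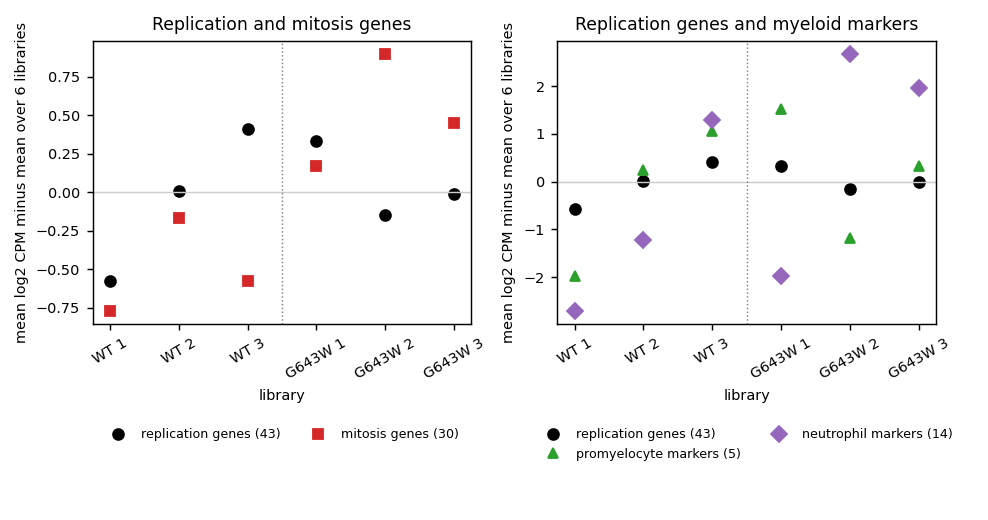
Mean log2 CPM of gene lists relative to the mean over 6 libraries (y axis) in each library (x axis), for replication and mitosis genes (left) and for replication genes with promyelocyte and neutrophil markers (right). WT 1 is lowest for all 4 lists, and WT 3 is highest for the replication genes at 0.41 but low for mitosis genes at -0.58.

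None of the origin loading genes differed detectably between genotypes. Of the 11, 4 had a positive and 7 a negative log2 difference; the median was -0.04 and the highest value 0.17 for Mcm5. Mcm2, a subunit of the MCM ring (ENSMUSG00000002870, chr6:88883474-88898780, minus strand), had 104, 176 and 246 CPM in WT against 228, 111 and 154 CPM in G643W libraries. The G643W values all lay inside the WT range, with means of 175 ± 71.4 and 164 ± 59.2 CPM (SD, n = 3 each). Its log2 difference was -0.09 ± 0.39 (SE, edgeR adjusted p = 0.941). Mcm6, another ring subunit, had its 6 libraries in the same order, at 198.5, 327 and 446 CPM in WT against 436, 216.5 and 293 CPM in G643W libraries. Mcm4 had the widest WT range of the ring, 89.1, 121 and 285 CPM, against 163, 111 and 144 CPM in G643W. The TPM of a whole gene adds short non-coding transcripts to the coding ones: a transcript of Mcm2 of 273 bases, annotated for nonsense-mediated decay, had 51.3 to 145 TPM, and the coding transcript of 3371 bases 12.4 to 30.1 TPM. Levels of different genes were therefore compared by the coding transcript with the most reads. On that scale Mcm6 ranged from 30.7 to 71.8 TPM over the 6 libraries, Mcm5 from 24.1 to 59.2, Mcm3 from 17.8 to 45.2, Mcm7 from 20.0 to 42.3, Mcm4 from 12.9 to 40.0 and Mcm2 from 12.4 to 30.1. Neighbours in this order overlapped.

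**Figure D4:**
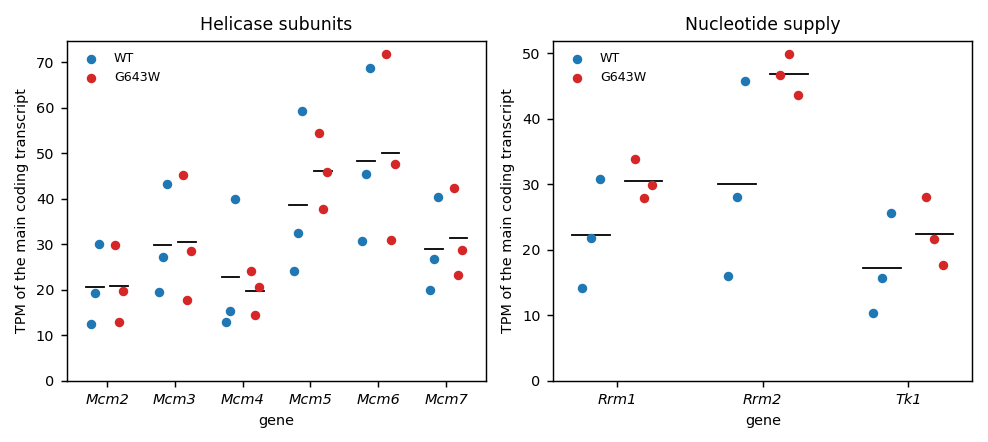
Level in TPM (y axis, from 0) of the coding transcript with the most reads of the 6 MCM ring subunits (left) and 3 nucleotide supply genes (right) in WT (blue) and G643W (red) libraries; points are libraries and black lines are means of 3. WT and G643W points overlap for every gene, and the highest points are those of Mcm6, up to 71.8 TPM.

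Orc1, the largest subunit of the origin recognition complex (ENSMUSG00000028587, chr4:108579423-108614833, plus strand), had the most negative difference of the 43. It had 12.8, 9.71 and 14.8 CPM in WT against 10.5, 4.69 and 10.6 CPM in G643W libraries, so that G643W 2 stood low and the other 2 lay within the WT range. The log2 difference was -0.54 ± 0.40 (SE, edgeR adjusted p = 0.62). In TPM the direction was opposite, at 2.82 in WT and 5.84 in G643W, since a transcript of 173 bases was given 9.05 TPM in G643W 1 from 9 reads and 2.73 TPM in G643W 2 from 4 reads. With length-scaled counts the log2 difference of Orc1 was 0.96. The full-length transcript of 3014 bases held most reads, 897, 663 and 1046 in WT and 668, 386 and 764 in G643W libraries. The loading factors Cdc6 and Cdt1 had log2 differences of 0.03 and -0.25, Orc6 had 0.05, and Gmnn, whose product inhibits Cdt1, had -0.01.

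All 6 helicase activation genes had a positive log2 difference, from 0.02 for Gins2 to 0.35 for Gins1, and none passed. Cdc45, a helicase cofactor (ENSMUSG00000000028, chr16:18780447-18811987, minus strand), had 33.7, 60.3 and 163 CPM in WT against 86.4, 93.6 and 88.5 CPM in G643W libraries. The WT libraries thus spanned 4.83-fold, the widest of the 43 genes, and the G643W libraries lay between WT 2 and WT 3. Its log2 difference was 0.06 ± 0.53 (SE, edgeR adjusted p = 0.968). Gins1, a subunit of the GINS complex (ENSMUSG00000027454, chr2:150905400-150931280, plus strand), had 15.9, 13.7 and 20.3 CPM in WT against 29.3, 14.6 and 19.6 CPM in G643W libraries. Its highest library was G643W 1, the other 2 lay within the WT range, and the log2 difference was 0.35 ± 0.33 (SE, edgeR adjusted p = 0.683). Mcm10, which helps to fire the loaded helicase, had 0.09. The main coding transcript of Gins2 held on average 4.96% of the TPM of that gene.

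Primase held the 1 gene of the 43 without overlap by CPM. Prim2, the large primase subunit (ENSMUSG00000026134, chr1:33453810-33669795, minus strand), had 20.1, 34.4 and 37.5 CPM in WT against 50.4, 42.4 and 43.6 CPM in G643W libraries. Every G643W library lay above every WT library, with means of 30.7 ± 9.25 and 45.4 ± 4.30 CPM (SD, n = 3 each). The log2 difference was 0.57 ± 0.27, with a 95% interval from -0.07 to 1.21 (SE, edgeR adjusted p = 0.537, the lowest of the 43 genes). Prim1, the catalytic subunit (ENSMUSG00000025395, chr10:128015168-128030037, plus strand), had 32.7, 64.0 and 70.5 CPM in WT against 71.3, 65.4 and 72.1 CPM in G643W libraries. WT 1 stood low and the other 5 libraries lay close together, and the log2 difference was 0.32 ± 0.30 (SE, edgeR adjusted p = 0.683). The polymerase alpha genes Pola1 and Pola2 had 0.03 and -0.20.

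The sliding clamp had the highest mean TPM of the 43 genes, by the whole gene and by the main coding transcript. Pcna (ENSMUSG00000027342, chr2:132249162-132253314, minus strand) had 230, 328 and 253 CPM in WT against 340, 320 and 296 CPM in G643W libraries, so that WT 2 lay within the G643W range. The log2 difference was 0.24 ± 0.23, with a 95% interval from -0.29 to 0.77 (SE, edgeR adjusted p = 0.687). In TPM the genotypes did not overlap, at 154, 162 and 142 in WT and 242, 188 and 193 in G643W libraries. A processed transcript of Pcna without a coding frame (589 bases) also did not overlap, at 45.6, 32.3 and 34.1 TPM in WT against 68.2, 51.8 and 48.9 TPM in G643W libraries. The coding transcript of 1518 bases overlapped, at 73.7, 113 and 94.8 TPM in WT against 119, 99.9 and 104 TPM in G643W libraries. The 5 subunits of the clamp loader, Rfc1 to Rfc5, had log2 differences between -0.13 for Rfc4 and 0.23 for Rfc1, and their WT and G643W values overlapped. Rfc2 had a log2 difference of 0.00 ± 0.23. The main coding transcript held on average 1.74% of the TPM of Rfc2 and 0.625% of that of Rfc3. Their gene levels thus rest mostly on other transcripts, such as those with retained introns.

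Polymerase delta and epsilon genes had 2 positive and 3 negative differences and a median of -0.03, and none passed. Pold1, the catalytic subunit of polymerase delta (ENSMUSG00000038644, chr7:44532746-44548849, minus strand), had 78.9, 113 and 153 CPM in WT against 142, 105 and 104 CPM in G643W libraries, all of the latter within the WT range (log2 difference 0.03 ± 0.29, SE, edgeR adjusted p = 0.975). Pold2, an accessory subunit (ENSMUSG00000020471, chr11:5872180-5878292, minus strand), had 28.8, 43.9 and 45.9 CPM in WT against 50.6, 19.6 and 21.6 CPM in G643W libraries. G643W 1 was its highest library and G643W 2 and 3 its lowest, and the log2 difference was -0.37 ± 0.41 (SE, edgeR adjusted p = 0.732). Without G643W 1 every remaining G643W value of Pold2 lay below every WT value, and its edgeR adjusted p was 0.171. In that fit 4525 of all 21644 genes tested had an unadjusted edgeR p under 0.05, and 1 of the 43 did. Of all genes 23.2% then lay wholly higher, and the share wholly lower is not given here. Pole and Pole2 of polymerase epsilon had 0.25 and -0.03, and Pold3 had -0.04 with the smallest standard error of the 43 genes, 0.19.

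The genes that finish the lagging strand differed from each other in direction. Lig1, the ligase that seals Okazaki fragments (ENSMUSG00000056394, chr7:13277283-13311433, plus strand), had 70.9, 101.5 and 203 CPM in WT against 153, 178 and 152 CPM in G643W libraries, where WT 3 was the highest and WT 1 and 2 lay below all G643W libraries. Its log2 difference was 0.36 ± 0.38 (SE, edgeR adjusted p = 0.717). Fen1, the nuclease that trims the fragments, had -0.22. The single-strand binding subunits had -0.09 for Rpa1, -0.04 for Rpa2 and -0.02 for Rpa3. Rpa1 (ENSMUSG00000000751, chr11:75298166-75348324, minus strand) had 118, 144 and 172 CPM in WT against 164, 108.5 and 134 CPM in G643W libraries, with overlap (SE 0.24, edgeR adjusted p = 0.893). Rpa3 (ENSMUSG00000012483, chr6:8255936-8259173, minus strand) departed from the shared pattern, with WT 2 as its highest library (16.9, 42.3 and 22.6 CPM in WT, 29.8, 26.3 and 24.7 CPM in G643W, edgeR adjusted p = 0.987). Its log2 difference had a standard error of 0.35.

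Both large subunits of the chromatin assembly factor CAF-1, which places histones on new DNA, had WT 3 as their highest library. Chaf1b (ENSMUSG00000022945, chr16:93883901-93906115, plus strand) had 22.3, 26.8 and 66.2 CPM in WT against 40.8, 32.8 and 31.6 CPM in G643W libraries (log2 difference -0.13 ± 0.42, SE, edgeR adjusted p = 0.914). Chaf1a (ENSMUSG00000002835, chr17:56040439-56072289, plus strand) had 52.8, 68.2 and 115 CPM in WT against 100.3, 81.9 and 90.2 CPM in G643W libraries (0.20 ± 0.31, SE, edgeR adjusted p = 0.804). In each gene the G643W values lay inside the WT range.

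The 4 nucleotide supply genes all had positive log2 differences, with a median of 0.33, and none passed. Rrm2, the small subunit of ribonucleotide reductase, whose level follows S phase (ENSMUSG00000020649, chr12:24708241-24714146, plus strand), had 63.8, 129 and 192 CPM in WT against 184, 230 and 180 CPM in G643W libraries. G643W 2 was its highest library, unlike in the loading genes, WT 3 lay within the G643W range and WT 1 and 2 below it. The means were 128 ± 64.1 and 198 ± 27.9 CPM (SD, n = 3 each), and the log2 difference was 0.63 ± 0.39, with a 95% interval from -0.30 to 1.55 (SE, edgeR adjusted p = 0.579). By the TPM of the whole gene the Rrm2 values did not overlap, at 19.8, 36.9 and 62.6 in WT and 67.9, 72.6 and 63.5 in G643W libraries. By the coding transcript of 2193 bases they did, at 16, 28 and 45.8 TPM in WT against 46.7, 49.9 and 43.6 TPM in G643W libraries. Rrm1, the large subunit of the same enzyme, had a log2 difference of 0.34. The ratio of Rrm2 to Rrm1 in CPM, which compares libraries and not the levels of both genes, was 0.54, 0.65 and 0.76 in WT and 0.72, 0.96 and 0.79 in G643W libraries, so that G643W 1 lay inside the WT range. Tyms, the enzyme that makes thymidylate (ENSMUSG00000025747, chr5:30058202-30073617, minus strand), had 53.6, 96.3 and 97.4 CPM in WT against 107, 99.8 and 84.5 CPM in G643W libraries (log2 difference 0.23 ± 0.27, SE, edgeR adjusted p = 0.746). Tk1, which salvages thymidine, had 0.33. The coding transcript of Tyms with the most reads held on average 3.66% of the TPM of that gene. WT 1 was the lowest of the 6 libraries in each of the 4 genes.

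Single libraries set the direction of the group. Without WT 1 the log2 difference was positive in 9 of the 43 genes with a median of -0.17. Without WT 3 it was positive in 40 with a median of 0.36, and in 14 every G643W library then lay above both remaining WT libraries, where 17.4% of all 22201 genes tested in that fit did. None of the 43 passed in either fit. The lowest edgeR adjusted p among them was 0.263, for Lig1, without WT 3, and 0.625, for Fen1, without WT 1. Unadjusted p-values under 0.05 numbered 9 of 43 without WT 3, where 14.4% of all genes had one, and 0 without WT 1, where 7.87% did. Leaving out G643W 1 gave 20 positive differences and a median of -0.01, and leaving out G643W 2 gave 34 and 0.15. Without WT 2 or G643W 3 there were 29 positive differences each, with medians of 0.08 and 0.07. The median of all genes stayed between 0.00 and 0.05 in these 6 fits.

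**Figure D5:**
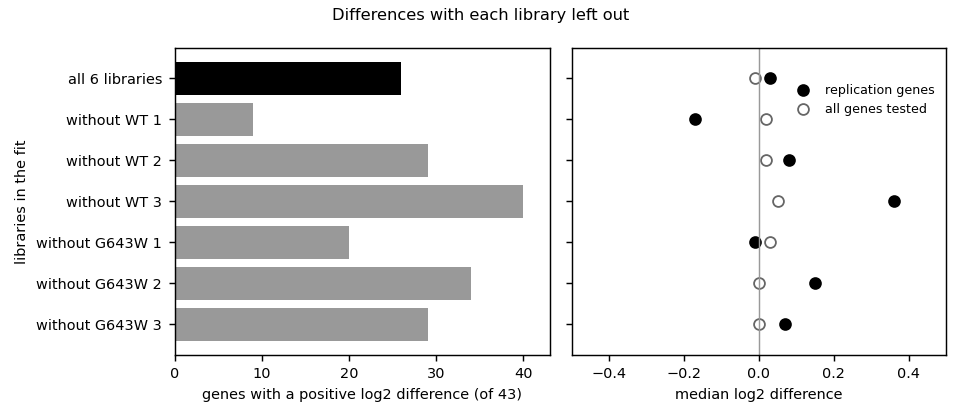
Number of the 43 genes with a positive log2 difference (left, bars from 0) and median log2 difference (right) of the 43 genes (filled) and of all genes tested (open), with all 6 libraries and with each left out. The count runs from 9 without WT 1 to 40 without WT 3.

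Further replication genes also did not pass, and 3 of the 7 firing genes were without overlap. Of 33 further replication genes, 0 passed. An unadjusted p under 0.05 was seen in 4 with higher values in G643W and in 0 with lower, against 3.89% and 5.78% of all genes tested. Wholly higher lay 5 and wholly lower 0, against 7.05% and 8.89% of all genes tested. The median log2 difference was 0.09 (0.01 to 0.42 with single libraries left out). The 5 loading genes (Orc2 to Orc5 and Mcmbp) had a median of -0.18, and the 7 firing genes of 0.56. Dbf4, the activator of the kinase Cdc7 that fires origins, had 42.5, 60.9 and 42.2 CPM in WT against 70.4, 94.3 and 76.8 CPM in G643W libraries (0.73 ± 0.23, SE, edgeR adjusted p = 0.487). Ticrr and Mtbp, partners in origin firing, had log2 differences of 0.90 and 0.86, also without overlap, but neither passed (edgeR adjusted p = 0.493 and 0.511). The other 2 without overlap were Rnaseh2b (0.59) and Top1, which relaxes DNA ahead of the fork. Top1 had 75.4, 69.0 and 94.0 CPM in WT against 99.7, 143 and 134 CPM in G643W libraries (0.66 ± 0.23, SE, edgeR adjusted p = 0.493). Ticrr, Mtbp and Rnaseh2b fall outside the rule for named genes and were named after their values had been seen. The difference between the firing genes and the 43 genes was not tested.

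Genes of nucleotide metabolism outside the 43 lay mostly the other way, with the lower medians in purine and pyrimidine synthesis. Of 30, 6 had a positive and 24 a negative log2 difference, with 12 positive without G643W 2 and 10 without WT 3 or with either limma fit on TPM. Their median was -0.43, between -0.61 and -0.17 under the other settings and with single libraries left out. None passed, with 2 at an unadjusted p under 0.05 and lower values, where 5.78% of all genes tested had one. The 14 deoxynucleotide genes among them had 5 positive and 9 negative differences and a median of -0.15. Their sums overlapped, at 1211, 975 and 1033 CPM in WT against 931, 1094 and 1198 CPM in G643W libraries. The 6 genes of pyrimidine synthesis had 1 positive and 5 negative differences and a median of -0.52. All 10 genes of purine synthesis had negative differences, from -0.95 to -0.17, with a median of -0.52. Their summed level was 833, 1282 and 1202 CPM in WT against 1126, 452 and 683 CPM in G643W libraries, where G643W 1 lay within the WT range. The 2 genes at that p were Ctps, which makes CTP, at 54.2, 49.7 and 41.2 CPM in WT against 36.3, 10.8 and 22.6 CPM in G643W libraries, and Dguok, a mitochondrial nucleoside kinase, at 33.2, 45.3 and 23.7 CPM against 22.7, 18.03 and 20.5 CPM. Ctps differed by a log2 value of -1.06 ± 0.42 (SE, edgeR adjusted p = 0.505) and Dguok by -0.74 ± 0.28 (SE, edgeR adjusted p = 0.5). Both were without overlap, as no other of the 30 genes was, where 8.89% of all genes tested lay wholly lower.

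Among 17 E2F and RB genes, the log2 difference was positive in 12, its median was 0.22 (0.00 to 0.57 with single libraries left out), and 0 passed. Rbl1, an RB relative that restrains E2F factors in S phase, had 56.9, 51.4 and 60.7 CPM in WT against 103, 112 and 111 CPM in G643W libraries, a clear gap with little spread (0.95 ± 0.18, SE, edgeR adjusted p = 0.239). E2f7, a repressive E2F factor, had 7.27, 5.68 and 12.8 CPM in WT against 13.2, 34.4 and 18.8 CPM in G643W libraries (1.36 ± 0.47, SE, edgeR adjusted p = 0.493). E2f1, an activating factor, had 0.08. In the 30 mitosis genes all log2 differences were positive, with a median of 0.96 (0.78 to 1.25 under the other settings). Of these, 0 passed. An unadjusted p under 0.05 with higher values was seen in 28 and 25 lay wholly higher, against 3.89% and 7.05% of all genes tested. Cenpe, a kinetochore motor, had 45.0, 58.3 and 48.9 CPM in WT against 99.7, 148.5 and 132 CPM in G643W libraries (1.32 ± 0.23, SE, edgeR adjusted p = 0.2). Tpx2, a spindle factor, had 68.3, 61.3 and 63.5 CPM in WT against 130, 237 and 166 CPM in G643W libraries (1.46 ± 0.26, SE, edgeR adjusted p = 0.224). The library order of mitosis genes was in part unlike that of replication genes. WT 1 was the lowest of the 6 libraries in 22 of the 30 mitosis genes, as it was in 36 of the 43 replication genes. G643W 2 was the highest of the 6 libraries in all 30 mitosis genes and in 1 of the 43 replication genes, and WT 3 was the lowest in 7 of the first and in 0 of the second. A difference between these lists was not tested.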

How the data were processed

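Per the submitters' processing notes, the reads passed through bcl2fastq and Salmon 0.12.0, with mm10 and GRCm38.p6 named as builds. Salmon's options, index and strand setting were not given in the sources used here. Each library has 1 deposited table which, per the file headers, lists every transcript with its TPM and its estimated count of reads. Of 136288 transcripts, 136176 matched GENCODE M21 (GRCm38) and were summed per gene; the others held at most 0.0365% of reads. The gene counts were rounded and low genes removed (filterByExpr, minimum count 10). The quasi-likelihood test of edgeR 4.0.16 in R 4.3.3 then compared the genotypes, two-sided, with TMM factors and no covariate. In simulated counts with 50 genes changed at each fold, it called 1 at 2-fold (2%) and 4 at 4-fold (8%). At 8-fold it called 22 (44%) and at 16-fold 30 (60%), with 7 false calls. Standard errors are the absolute log2 difference over the square root of F. Means of lists use log2 CPM with a prior count of 2. No 2 libraries agreed within sampling noise. The members and lists were chosen with earlier results of these data known.

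Values per library were given for the member of each role with the lowest p, the largest absolute difference and the highest mean TPM, and for the 2 genes with the lowest p of each other list. The values per library of Mcm4 and Mcm6 fall outside this rule. Progenitor, monocyte, dendritic, erythroid, B cell and T and NK cell markers were also listed: their median log2 differences were 0.30, -0.98, -2.94, 1.25, 0.31 and 0.73, and promyelocyte and neutrophil markers had 0.06 and 1.66. BLAST+ 2.17.0 was used to look for near-identical copies of each member (identity 95% or more, covering 50% or more of a transcript). Only Cdc6, Mcm7, Pcna and Tyms had one, each a pseudogene with at most 0.094% of the member's reads. Alternatives were other scaling, no filter, length-scaled counts, a block for the replicate number, leaving out single libraries, limma 3.58.1 on log2 TPM, DESeq2 1.42.0, protein-coding genes alone and a neutrophil covariate.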

Additional observations from a re-analysis of the deposited data

How the results depend on the processing

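In all 17 alternatives 0 of the 43 genes passed. Positive differences numbered 34 and 35 with limma on log2(TPM + 1) and log2(TPM + 0.1), with medians of 0.18 and 0.20. They numbered 32 on protein-coding genes alone (0.11) and 30 with length-scaled counts (0.10), against 26 (0.03). Over all genes 56%, 56.1%, 51.7% and 52.7% were then positive, against 49.2%. With other scaling, no filter, summed copies, DESeq2 or the neutrophil covariate the count was 23 to 26. The count of genes called over all genes, 25, moved to 16 without a scaling factor, 104 without a filter, 10 with length-scaled counts, 43 with limma on log2(TPM + 0.1), 427 with DESeq2 and 2 on protein-coding genes alone. With the replicate number as a block it was 0 (1772 at an unadjusted edgeR p under 0.05); same-numbered libraries did not deviate together (correlations 0.112, -0.165 and 0.176), so the numbers were not taken as pairs, and the block gave 30 positive differences of 43. Leaving out a library gave 0 to 16 called genes, 9 to 40 positive differences, 1 to 14 members without overlap and medians of -0.17 to 0.36. Members without overlap numbered 2 with length-scaled counts and 3 each with limma on log2(TPM + 1), limma on log2(TPM + 0.1) and protein-coding genes alone, against 1; over all genes 7.67%, 9.61%, 9.61% and 7.66% then lay wholly higher. Of 16 named members in 17 alternatives, 27 values had the opposite sign; the cause was not tested. With length-scaled counts these were Orc1 0.96, Rpa3 0.03 and Pold1 -0.00, with limma on log2(TPM + 1) Orc1 0.62, Rpa3 0.17 and Mcm2 0.01, and with limma on log2(TPM + 0.1) Orc1 0.73, Rpa3 0.18 and Mcm2 0.01. With the replicate block they were Chaf1b 0.04 and Rpa3 0.09, on protein-coding genes alone Rpa3 0.08, and with the neutrophil covariate Rpa3 0.02 and Cdc45 -0.08. The ranges with 1 library left out follow for genes whose sign changed. They were Cdc45 -0.32 to 1.00, Chaf1a -0.02 to 0.65, Chaf1b -0.41 to 0.58, Mcm2 -0.36 to 0.29, Pold1 -0.19 to 0.35, Rpa1 -0.23 to 0.11, Rpa3 -0.27 to 0.48 and Tyms -0.00 to 0.44. Values that kept their sign but moved by over 1.5 times ranged for Gins1 0.12 to 0.57, Lig1 0.08 to 0.97, Orc1 -0.72 to -0.24, Pcna 0.13 to 0.44, Pold2 -0.85 to -0.13, Prim1 0.05 to 0.60, Prim2 0.33 to 0.80 and Rrm2 0.30 to 1.11.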
